A study of Homo sapiens with 8 samples.

Results

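Imprinted growth regulators are genes that raise or restrain growth before and after birth. In at least some tissues they are transcribed mainly from the copy inherited from 1 parent. Whether this holds in the cells used here was not tested. The 10 described here are GRB10, PHLDA2, IGF2, DLK1, PLAGL1, PEG3, NDN, MEST, PEG10 and SGCE, chosen by symbol and not by their values, and all 10 were listed among the 20294 genes of the count table. RNA was sequenced from HSC-5, an established human cutaneous squamous cell carcinoma line that stably expressed the nuclease Cas9 from a lentivirus. Cells then received the guide RNA sgEZH2-1 (3 libraries), the guide RNA sgEZH2-2 (3 libraries) or an empty vector (Control, 2 libraries), and G418 was used to select the cells with a guide before RNA was taken. The guides target EZH2, so the comparison asks what changes in these cells when EZH2 is targeted. The cells were selected populations. The labels do not say whether libraries came from separate cultures, and p-values therefore measure the spread between these libraries, which may be technical. The submitters left out a control that clustered apart from the others, so the spread of the controls may be understated.

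EZH2 is the methyltransferase of Polycomb repressive complex PRC2, which places methyl groups on lysine 27 of histone H3 at silent genes, many with CpG-rich start sites. At imprinted loci the parental copies differ in DNA methylation laid down in the germ line, and in mouse placenta PRC2 also takes part in silencing some of them. The genes fall into a few roles: IGF2 is a secreted growth factor, GRB10 an adaptor that dampens signalling by the insulin and IGF receptors, and PHLDA2 a brake on placental growth. Read counts per gene cannot tell the parental copies or the start sites of a gene apart, so the values below are sums over both.

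The start-site sequences of GRB10, PLAGL1 and NDN are printed because GRB10 was the only gene of the 10 that passed the test, while PLAGL1 and NDN were at or near 0 counts. Windows of 300 bases, from 250 before to 50 after a RefSeq start (GRCh38.p14), were found for 4 of the 10 genes: PLAGL1, GRB10 and MEST with 5 each, and NDN with 1. The motif searched was CG, which reads the same on both strands, and it is in capitals below. GRB10 windows 1, 2 and 3 lie on the minus strand at chr7:50793404-50793703, chr7:50792825-50793124 and chr7:50782847-50783146. PLAGL1 window 3 lies on the minus strand at chr6:144008210-144008509 and the NDN window on the minus strand at chr15:23687256-23687555.
GRB10 window 1: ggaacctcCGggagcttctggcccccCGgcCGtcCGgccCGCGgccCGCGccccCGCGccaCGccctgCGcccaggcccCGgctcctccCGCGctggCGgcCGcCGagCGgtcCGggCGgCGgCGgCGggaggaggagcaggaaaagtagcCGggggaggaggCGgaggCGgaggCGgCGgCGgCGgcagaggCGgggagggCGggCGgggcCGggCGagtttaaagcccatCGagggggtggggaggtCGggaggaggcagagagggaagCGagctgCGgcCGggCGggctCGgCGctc
GRB10 window 2: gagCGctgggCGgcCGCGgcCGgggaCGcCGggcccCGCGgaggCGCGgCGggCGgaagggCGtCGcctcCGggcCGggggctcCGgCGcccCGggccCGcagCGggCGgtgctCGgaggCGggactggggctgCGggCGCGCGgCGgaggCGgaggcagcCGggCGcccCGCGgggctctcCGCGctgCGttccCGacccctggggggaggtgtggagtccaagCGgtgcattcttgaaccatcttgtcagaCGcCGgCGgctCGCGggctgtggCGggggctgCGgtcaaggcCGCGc
GRB10 window 3: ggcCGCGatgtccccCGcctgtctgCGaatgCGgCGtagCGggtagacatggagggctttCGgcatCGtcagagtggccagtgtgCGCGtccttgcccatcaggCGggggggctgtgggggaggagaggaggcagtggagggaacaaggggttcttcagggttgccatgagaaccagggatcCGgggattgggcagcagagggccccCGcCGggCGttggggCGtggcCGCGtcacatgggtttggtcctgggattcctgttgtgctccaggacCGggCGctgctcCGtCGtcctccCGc
PLAGL1 window 3: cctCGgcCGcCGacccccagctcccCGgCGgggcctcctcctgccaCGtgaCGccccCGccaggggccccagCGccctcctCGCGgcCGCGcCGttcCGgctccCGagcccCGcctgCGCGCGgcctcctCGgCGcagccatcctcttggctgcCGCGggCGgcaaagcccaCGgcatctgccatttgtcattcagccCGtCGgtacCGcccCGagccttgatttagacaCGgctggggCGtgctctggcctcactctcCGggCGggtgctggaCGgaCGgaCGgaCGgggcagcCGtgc
NDN window 1: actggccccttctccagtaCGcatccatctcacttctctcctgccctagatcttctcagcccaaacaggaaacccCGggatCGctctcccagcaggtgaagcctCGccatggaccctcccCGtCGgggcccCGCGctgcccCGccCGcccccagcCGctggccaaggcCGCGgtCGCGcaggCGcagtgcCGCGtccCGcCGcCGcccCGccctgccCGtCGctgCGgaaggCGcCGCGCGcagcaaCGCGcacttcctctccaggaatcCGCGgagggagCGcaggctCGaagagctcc

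GRB10 windows 1, 2 and 3 held 44, 49 and 24 CG, and its other 2 windows held 3 and 4. Over all 35116 RefSeq windows the median was 14 CG, 96% held at least 1, and 41.2% held at least 20. As many CG as in GRB10 window 2 were present in 1.6% of all windows, and as many as in window 1 in 4.19%. PLAGL1 window 3 held 39 CG (8.71% of windows held as many), PLAGL1 window 1 held 31, the other 3 PLAGL1 windows held 2 or 3, and the NDN window held 35 (14.1% held as many). The 5 MEST windows held 13 to 25. CG-rich starts were thus found both at GRB10, which was counted in every library, and at PLAGL1 and NDN, which had 0 to 1 counts in each library.

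The libraries held 12.6 M to 15.5 M counts each, and 3 counts, used as the floor, corresponded to 0.196 to 0.236 CPM (counts scaled to the library's TMM-adjusted total, the unit of the levels below). EZH2 itself was at 56.4, 56.3 and 48 CPM with sgEZH2-1, at 73.8, 67.5 and 65.1 CPM with sgEZH2-2, and at 82.7 and 84.1 CPM in Control. It fell with sgEZH2-1 (log2 fold change -0.64, SE 0.0835, edgeR adjusted p = 0.000529), while with sgEZH2-2 the value was -0.28 (adjusted p = 0.0699) and with both guides pooled -0.45 (adjusted p = 0.113). All 12 squamous epithelial markers were detected, with summed levels of 3870 to 4370 CPM with sgEZH2-1, 3770 to 3850 CPM with sgEZH2-2 and 4240 to 4410 CPM in Control. Summed markers of fibroblasts were at 5.02 to 8.96 CPM with sgEZH2-1, 11 to 14.1 CPM with sgEZH2-2 and 6.13 to 7.24 CPM in Control. Those of leukocytes were at 14.3 to 18.5, 11.7 to 13.8 and 14.1 to 14.8 CPM with sgEZH2-1, sgEZH2-2 and Control, and those of melanocytes at 30.6 to 33.1, 27.9 to 29.7 and 28.9 to 30.8 CPM. The 7 endothelial markers summed to 76.6 to 81.8 CPM with sgEZH2-1, 143 to 160 CPM with sgEZH2-2 and 177 to 184 CPM in Control, and the 7 neural markers to 76.3 to 88.6, 42.2 to 45.3 and 40 to 40.5 CPM in these groups. COL1A2, CD3E, MS4A1, KDR, TYR, DCT, SOX10, SNAP25, GAP43 and STMN2 were at 0 counts in every library.

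The 10 genes covered a wide span of levels per length of exon. With sgEZH2-1 the order of mean levels was PHLDA2 at 18.6, GRB10 at 3.34, MEST at 1.48, PEG10 at 0.18 and IGF2 at 0.065 CPM per kb. With sgEZH2-2 the order was PHLDA2 at 17.2, GRB10 at 2.49, MEST at 1.55, PEG10 at 0.146 and IGF2 at 0.0247 CPM per kb. In Control it was PHLDA2 at 12.9, MEST at 1.66, GRB10 at 0.861, PEG10 at 0.244, SGCE at 0.0153 and IGF2 at 0.0102 CPM per kb. Per kb, GRB10 thus stood above MEST with either guide and below MEST in Control, and the libraries of each group did not overlap between these genes. The order in Control rests on exon lengths of 9.795 kb for GRB10 and 4.794 kb for MEST, joined over all annotated exons. Without division by length, GRB10 was at 9.3 and 7.56 CPM and MEST at 8.59 and 7.3 CPM in Control. The first 4 genes in each group did not overlap their neighbours in the order per kb. Below them, SGCE and IGF2 overlapped in the sgEZH2-2 and Control libraries, and PLAGL1, PEG3, DLK1 and NDN had at most 1 count in a library.

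**Figure D1:**
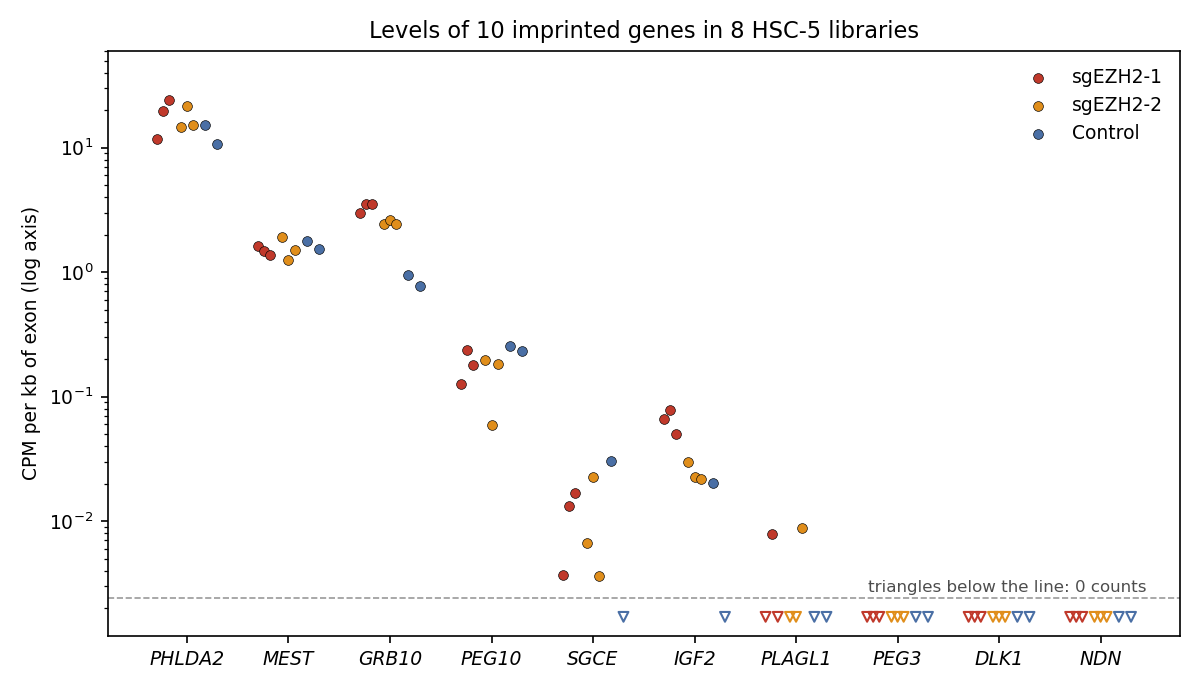
Levels of the 10 genes in CPM per kb of exon (log axis) in each sgEZH2-1, sgEZH2-2 and Control library; triangles below the dashed line are libraries with 0 counts. GRB10 is at 2.96 to 3.55 with sgEZH2-1, 2.42 to 2.62 with sgEZH2-2 and 0.772 to 0.949 in Control, while PEG3, DLK1 and NDN have 0 counts in every library.

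After removal of genes with few counts, 4 of the 10 genes remained for testing (GRB10, PHLDA2, MEST and PEG10), against 13124 of all 20294 genes. With the guides pooled against Control, 1 of these 4 rose and 0 fell, where 3.76% of all tested genes rose and 0.594% fell. The gene that rose was GRB10, the insulin and IGF receptor adaptor (chr7:50590063-50793462, minus strand, hg38). The same single gene rose with sgEZH2-1 alone, where 11.3% of tested genes rose and 9.51% fell, and with sgEZH2-2 alone, where 6.18% rose and 2.5% fell. As a second form of the pooled comparison, the mean of both guides was taken from a fit of 3 groups, in which a difference between the guides does not count as spread. There GRB10 was again the 1 of 4 that rose, where 7.7% of tested genes rose and 4.59% fell. With 4 genes tested, these counts describe GRB10 and not the 10 genes as a class.

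GRB10 had 375, 509 and 491 counts with sgEZH2-1, 343, 327 and 311 counts with sgEZH2-2, and 131 and 116 counts in Control. In CPM these were 28.9, 34.8 and 34.4 with sgEZH2-1, 23.7, 25.7 and 23.7 with sgEZH2-2, and 9.3 and 7.56 in Control. Every guide library was above both controls, as in 10.2% of all tested genes. Every sgEZH2-1 library was also above every sgEZH2-2 library, a pattern whose share over all tested genes was not computed. Means were 32.7 ± 3.26 CPM with sgEZH2-1 (SD, n = 3), 24.4 ± 1.17 CPM with sgEZH2-2 (SD, n = 3) and 8.43 ± 1.23 CPM in Control (SD, n = 2).

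With both guides pooled, GRB10 was 3.39-fold higher than in Control (log2 fold change 1.76, SE 0.198, 95% interval 1.32 to 2.20, edgeR quasi-likelihood adjusted p = 0.000965). By size it ranked 313 among the rises, and by p it ranked 59 of 13124 genes. It was 3.89-fold higher with sgEZH2-1 (log2 fold change 1.96, SE 0.123, adjusted p = 5.2e-06) and 2.89-fold higher with sgEZH2-2 (1.53, SE 0.125, adjusted p = 5.54e-05); both comparisons share the same 2 controls. Leaving out any single library kept GRB10 called in all 3 comparisons, with pooled values of 1.62 to 1.92.

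The level of GRB10 was 1.34-fold higher with sgEZH2-1 than with sgEZH2-2 (log2 difference 0.43, SE 0.0956, adjusted p = 0.0112), where 10.4% of tested genes were higher and 11.5% lower with sgEZH2-1. EZH2 mRNA was lower with sgEZH2-1 than with sgEZH2-2 (-0.36, adjusted p = 0.00844). RNA counts do not give the amount of EZH2 protein or of its methyl marks. A relation between the EZH2 and GRB10 levels was not tested. The difference in GRB10 lost its call without the third sgEZH2-2 library (0.41, adjusted p = 0.0524). The summed neural markers given above were likewise highest with sgEZH2-1 and the endothelial markers lowest. Only 3 of the 7 markers in each of these lists had enough counts for the test, so the sums can rest on few genes. Their part in the GRB10 levels was not tested. All libraries came from the HSC-5 line, so these sums are not counts of neural or endothelial cells. In bulk RNA, a change in the share of cells that express a marker and a change per cell cannot be told apart.

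**Figure D2:**
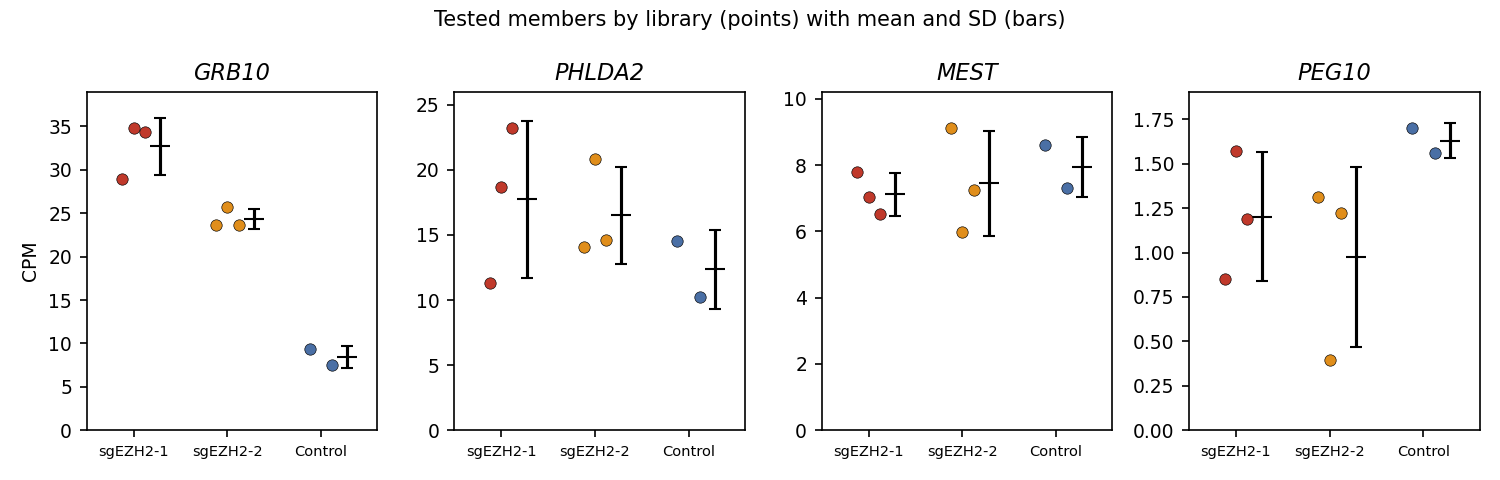
CPM of GRB10, PHLDA2, MEST and PEG10 in each library (points), with mean and SD (bars), for sgEZH2-1, sgEZH2-2 and Control; each panel has its own axis from 0. GRB10 is at 28.9 to 34.8, 23.7 to 25.7 and 7.56 to 9.3 CPM in the 3 groups, without overlap, a pattern whose share over all tested genes was not computed. The libraries of PHLDA2 and MEST overlap between the groups.

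PHLDA2, a small pleckstrin-homology protein that limits placental growth in mouse, lies at chr11:2928273-2929455 on the minus strand. Its levels were 11.3, 18.7 and 23.2 CPM with sgEZH2-1, 14.1, 20.8 and 14.6 CPM with sgEZH2-2, and 14.5 and 10.2 CPM in Control. The groups overlapped, and the sgEZH2-1 libraries alone spanned nearly the whole range. The pooled log2 fold change was 0.48 (95% interval -0.11 to 1.06, adjusted p = 0.419), with values of 0.54 for sgEZH2-1 (adjusted p = 0.211) and 0.42 for sgEZH2-2 (adjusted p = 0.435). Without the first sgEZH2-1 library, the lowest of its group, the sgEZH2-1 value was 0.77 and passed the test (adjusted p = 0.0282).

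MEST, a membrane protein of the hydrolase family that is expressed in mesoderm and fat, lies at chr7:130486171-130506465 on the plus strand. It had 7.8, 7.04 and 6.51 CPM with sgEZH2-1, 9.11, 5.98 and 7.24 CPM with sgEZH2-2, and 8.59 and 7.3 CPM in Control. The 3 groups overlapped, and MEST had the narrowest pooled interval of the 3 genes that did not pass (log2 fold change -0.12, 95% interval -0.50 to 0.25, adjusted p = 0.784). The guide values were -0.16 for sgEZH2-1 (adjusted p = 0.579) and -0.09 for sgEZH2-2 (adjusted p = 0.83). MEST overlaps COPG2 on the opposite strand by 228 bases and the antisense gene MESTIT1 by 4863 bases; whether counting used strand is not stated for these data, so its counts are uncertain to that extent.

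PEG10, a gene derived from a retrotransposon that mouse embryos need to form a placenta, and SGCE, which encodes epsilon-sarcoglycan of the muscle membrane complex, start head to head and overlap by 248 bases. PEG10 (chr7:94656325-94669695, plus strand) had 11, 23 and 17 counts with sgEZH2-1, 19, 5 and 16 counts with sgEZH2-2, and 24 and 24 counts in Control. In CPM it was at 0.849, 1.57 and 1.19 with sgEZH2-1, at 1.31, 0.393 and 1.22 with sgEZH2-2, and at 1.7 and 1.56 in Control. All guide libraries but the second of sgEZH2-1 were below both controls, a pattern whose share over all tested genes is not given here. The pooled log2 fold change was -0.57 with a wide 95% interval of -1.43 to 0.30 (adjusted p = 0.532), and the guide values were -0.43 (sgEZH2-1, adjusted p = 0.504) and -0.72 (sgEZH2-2, adjusted p = 0.358).

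**Figure D3:**
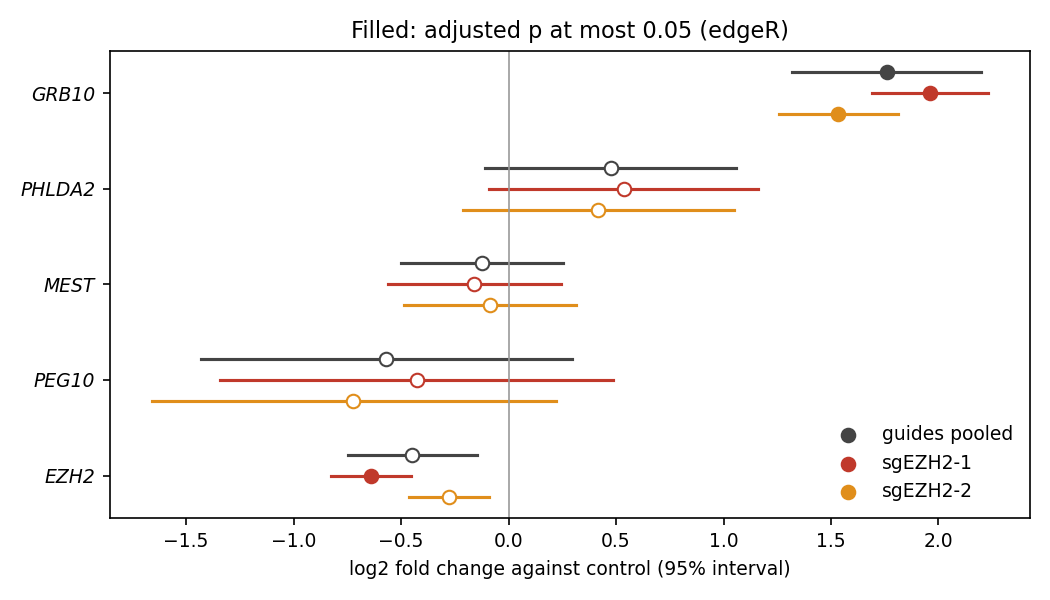
Log2 fold changes against Control with 95% intervals for the 4 tested genes and EZH2, with both guides pooled, for sgEZH2-1 and for sgEZH2-2; filled points have an adjusted p of at most 0.05 in edgeR. The GRB10 intervals (1.32 to 2.20 pooled) lie to the right of 0, and those of PHLDA2, MEST and PEG10 include 0.

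The differences of PHLDA2, MEST and PEG10 between the guides were 0.12, -0.07 and 0.30 on the log2 scale (sgEZH2-1 over sgEZH2-2, adjusted p = 0.759, 0.781 and 0.629). Their 95% intervals were -0.43 to 0.66, -0.44 to 0.29 and -0.60 to 1.19, and differences inside these limits are not excluded.

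SGCE had 1, 4 and 5 counts with sgEZH2-1, 2, 6 and 1 counts with sgEZH2-2, and 9 and 0 counts in Control, which was too few for the test. The control libraries held both the highest and the lowest of these values. SGCE also overlaps CASD1 on the opposite strand by 32816 bases, and CASD1 had 151 to 160, 97 to 168 and 87 to 165 counts per library with sgEZH2-1, sgEZH2-2 and Control.

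IGF2, the fetal growth factor that binds the IGF1 receptor, had 6, 8 and 5 counts with sgEZH2-1, 3, 2 and 2 counts with sgEZH2-2, and 2 and 0 counts in Control. Every sgEZH2-1 library was above every other library, at levels near the floor of 3 counts. The share of genes with this pattern was not computed. Summed over libraries and scaled for depth, the ratio to Control was 6.68 with sgEZH2-1 (exact 95% counting interval 1.61 to 59.1) and 2.55 with sgEZH2-2 (0.486 to 25.2). These intervals cover counting error only, and among the low genes they were computed for IGF2 alone. In a fit without the filter on low counts, IGF2 did not pass with sgEZH2-1 (log2 fold change 2.58, adjusted p = 0.0658) or with the guides pooled (2.07, adjusted p = 0.359). Pooled values from the same fit were -0.41 for SGCE (adjusted p = 0.874) and 1.89 for PLAGL1 (adjusted p = 0.675). IGF2 shares its strand with INS-IGF2 over 17066 bases, and INS-IGF2 had 0 counts in every library.

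PLAGL1, a zinc-finger factor that restrains proliferation, had 1 count in the second sgEZH2-1 library, 1 count in the third sgEZH2-2 library and 0 counts in both controls. DLK1, a membrane protein with EGF-like repeats that holds back fat cell differentiation, had 0 counts in all 8 libraries. PEG3, a zinc-finger protein, and NDN, the MAGE-family protein necdin, were also at 0 in all 8. ZIM2, which overlaps PEG3 on the same strand, was at 0 as well. In a single library, a count of 0 allows levels up to the floor of 0.196 to 0.236 CPM given above, so expression below it is not excluded. For 0 in all 8 libraries together the limit is lower, and it was not computed. In the whole table, 3226 of 20294 genes were at 0 in every library.

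Other imprinted genes were described from a list of 48, of which 44 were in the table and 26 were tested. With the guides pooled 0 of the 26 passed in either direction, and the median log2 fold change was 0.04, against -0.00432 over all tested genes. With sgEZH2-1, 2 rose and 1 fell (median 0.02, against -0.00939 over all tested genes), and with sgEZH2-2, 2 rose and 1 fell (median 0.11, against 0.000913). Over all tested genes, the shares that rose and fell were 11.3% and 9.51% with sgEZH2-1 and 6.18% and 2.5% with sgEZH2-2, so 2 and 1 of 26 are near or under these shares. In the fit of 3 groups the mean of both guides gave 4 rises and 1 fall among the 26 (7.7% and 4.59% over all tested genes), among them KCNQ1 (1.21, adjusted p = 0.00807), OSBPL5 (0.52, adjusted p = 0.0405), DLX5 (1.37, adjusted p = 0.0455) and BLCAP (-0.17, adjusted p = 0.0227). Of the 18 untested genes, 7 had 0 counts in every library, among them MAGEL2, the neighbour of NDN.

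CPA4, a carboxypeptidase gene 193 kb from MEST, moved in opposite directions: it had 21.1, 21.7 and 23.8 CPM with sgEZH2-1, 4.07, 3.85 and 3.96 CPM with sgEZH2-2, and 9.44 and 7.43 CPM in Control. It rose with sgEZH2-1 (log2 fold change 1.40, adjusted p = 4.14e-05) and fell with sgEZH2-2 (-1.08, adjusted p = 0.00111), and the guides differed by 2.48 (adjusted p = 2.98e-06). KCNQ1, a potassium channel gene of the PHLDA2 cluster, rose with sgEZH2-2 to 5.8, 6.05 and 7.17 CPM, against 2.27 and 1.5 CPM in Control (1.75, adjusted p = 0.00186). With sgEZH2-1 it was at 2.47, 2.67 and 3.78 CPM (0.67, adjusted p = 0.107), and the guides differed (-1.09, adjusted p = 0.00511). DLX5, a homeobox factor, rose with sgEZH2-1 (1.36, adjusted p = 0.0461), and with sgEZH2-2 the value was 1.38 (adjusted p = 0.0757). The difference between the guides was -0.02 (adjusted p = 0.97). DLX5 had only 13 counts over both controls and passed the filter on low counts through the guide libraries. OSBPL5, a lipid transfer protein gene, rose with sgEZH2-2 (0.72, adjusted p = 0.0193), and BLCAP fell with sgEZH2-1 (-0.22, adjusted p = 0.00903).

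The calls of DLX5, OSBPL5 and BLCAP were lost when some libraries were left out. DLX5 was lost without either control, any sgEZH2-1 library or the second sgEZH2-2 library (adjusted p 0.0556 to 0.196), with log2 values of 1.31 to 1.44 over all leave-outs, and in DESeq2 (adjusted p = 0.137). OSBPL5 was lost without either control or without the second or the third sgEZH2-2 library (adjusted p 0.0589 to 0.129). BLCAP was lost without the first control (adjusted p = 0.0747) or the second sgEZH2-1 library (adjusted p = 0.0548).

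The insulin and IGF signalling list held 31 genes, 23 of them tested. With the guides pooled 1 rose and 0 fell, with sgEZH2-1 4 rose and 2 fell, and with sgEZH2-2 4 rose and 0 fell, with medians of 0.11, 0.13 and 0.13 (-0.00432, -0.00939 and 0.000913 over all tested genes). The shares over all tested genes were 3.76% higher and 0.594% lower pooled, 11.3% and 9.51% with sgEZH2-1, and 6.18% and 2.5% with sgEZH2-2. The mean of both guides in the fit of 3 groups gave 4 rises and 0 falls, namely INSR (adjusted p = 1.39e-05), IGFBP3 (adjusted p = 7.32e-05), STC1 (adjusted p = 0.00861) and IRS2 (adjusted p = 0.0348). The gene called in the pooled comparison was INSR, the insulin receptor to which GRB10 binds. INSR was at 19.1, 15.4 and 15.8 CPM with sgEZH2-1, 20.4, 21.7 and 22.8 CPM with sgEZH2-2, and 5.61 and 5.28 CPM in Control. All 6 guide libraries were above both controls, as they were for GRB10. Pooled over both guides, INSR rose by 1.82 on the log2 scale (SE 0.186, adjusted p = 0.000594), with 1.62 for sgEZH2-1 (adjusted p = 2.41e-05) and 1.99 for sgEZH2-2 (adjusted p = 1.75e-05).

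INSR differed between the guides in the direction opposite to GRB10 (log2 difference -0.37, adjusted p = 0.0248). That call was lost without the second or the third sgEZH2-1 library or the second or the third sgEZH2-2 library (adjusted p 0.0764 to 0.106). IGF1R, the receptor of IGF1 and IGF2, gave values of -0.11 for sgEZH2-1 (adjusted p = 0.252) and 0.13 for sgEZH2-2 (adjusted p = 0.256). IRS1, an adaptor below both receptors, gave 0.10 with sgEZH2-1 and 0.12 with sgEZH2-2 (adjusted p = 0.598 and 0.612), and IGF2R, which clears IGF2, gave 0.03 with sgEZH2-1 and -0.02 with sgEZH2-2 (adjusted p = 0.837 and 0.909).

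Secreted regulators of IGF availability gave these values. IGFBP3, an IGF binding protein, rose with sgEZH2-1 to 125, 114 and 118 CPM, against 46.3 and 51.4 CPM in Control (1.28, adjusted p = 2.98e-06), and was at 53.7, 57.2 and 55.7 CPM with sgEZH2-2 (0.18, adjusted p = 0.159). The difference between the guides was 1.10 (adjusted p = 5.11e-06). STC1, a secreted inhibitor of the IGFBP protease PAPPA, rose with sgEZH2-2 to 8.42, 9.28 and 9.07 CPM, against 1.85 and 2.87 CPM in Control (1.91, adjusted p = 0.000527), and was at 3.4, 2.67 and 2.24 CPM with sgEZH2-1 (0.22, adjusted p = 0.576). The guides differed by -1.69 (adjusted p = 0.000256).

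IGFBP5 had only 7 counts over both controls and passed the filter on low counts through the sgEZH2-1 libraries. With sgEZH2-1 it also rose (2.06, adjusted p = 0.0173), to low levels of 0.695, 0.957 and 1.4 CPM. In Control it was at 0.284 and 0.196 CPM, so the size of its rise is uncertain. That call was lost without the first or second control (adjusted p 0.0749 and 0.0984), and without the second or the third sgEZH2-1 library IGFBP5 did not pass the filter on low counts and was not tested. IGF2BP1, which binds IGF2 mRNA, rose with sgEZH2-1 (0.38, adjusted p = 0.0168; 0.0997 without the second control and 0.0599 without the second sgEZH2-1 library). IGFBP7 fell with sgEZH2-1 (-0.28, adjusted p = 0.0136), a call lost without the second control (0.0772) or the second sgEZH2-1 library (0.0697). PIK3R2, a regulatory subunit of PI3-kinase, fell with sgEZH2-1 (-0.62, adjusted p = 0.0111; 0.0706 without the second control). IRS2, an adaptor like IRS1, rose with sgEZH2-2 (0.54, adjusted p = 0.0401), a call lost without the first control, the second sgEZH2-1 library or any sgEZH2-2 library (adjusted p 0.0644 to 0.242).

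Relatives of the 10 genes formed a list of 18, of which 12 were tested. GRB7 and GRB14 are also in the insulin and IGF list, so GRB7 is counted among the sgEZH2-2 rises of both. With the guides pooled 1 rose and 0 fell, with sgEZH2-1 2 rose and 1 fell, and with sgEZH2-2 5 rose and 0 fell, with medians of 0.15, 0.03 and 0.09 (-0.00432, -0.00939 and 0.000913 over all tested genes). Over all tested genes 3.76% rose and 0.594% fell pooled, 11.3% and 9.51% with sgEZH2-1, and 6.18% and 2.5% with sgEZH2-2. The mean of both guides in the fit of 3 groups gave 3 rises and 0 falls: PLAG1 (adjusted p = 5.58e-05), SGCB (adjusted p = 0.00198) and MAGEF1 (adjusted p = 0.0403). The gene called in the pooled comparison was PLAG1, a zinc-finger factor related to PLAGL1 that can activate IGF2. PLAG1 was at 5.33, 5.27 and 7 CPM with sgEZH2-1, 3.59, 4.8 and 4.65 CPM with sgEZH2-2, and 0.568 and 0.326 CPM in Control, so every guide library was above both controls. The pooled log2 value of PLAG1 was 3.50 (SE 0.361, adjusted p = 0.000597), while PLAGL1 itself had 0 or 1 counts in each library. PLAG1 had only 13 counts over both controls and passed the filter on low counts through the guide libraries. The size of its rise is therefore uncertain.

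SGCB, the beta-sarcoglycan partner of the SGCE family, rose with sgEZH2-1 to 35.1, 31.5 and 34.3 CPM, against 18.9 and 21.6 CPM in Control (0.73, adjusted p = 0.000425), and the guides differed (0.37, adjusted p = 0.00938). With sgEZH2-2 SGCB was at 27.5, 25.2 and 25.2 CPM (0.36, adjusted p = 0.0392), a call lost when any library other than the first of sgEZH2-1 was left out (adjusted p 0.0524 to 0.232). DLK2, the paralogue of DLK1, fell with sgEZH2-1 to 6.33, 7.59 and 8.96 CPM, against 18.9 and 13.8 CPM in Control (-1.09, adjusted p = 0.00257), and was at 14.6, 19.3 and 18.8 CPM with sgEZH2-2 (0.11, adjusted p = 0.783). The guides differed in DLK2 by -1.19 (adjusted p = 0.00113). MAGEF1, of the same family as NDN, rose with sgEZH2-2 (0.37, adjusted p = 0.00282) and gave 0.00 with sgEZH2-1 (adjusted p = 0.993).

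MAGED2, also of that family, rose with sgEZH2-2 (0.35, adjusted p = 0.0403), a call lost without either control, the second sgEZH2-1 library or any sgEZH2-2 library (adjusted p 0.0663 to 0.158). GRB7, an adaptor related to GRB10, rose with sgEZH2-2 (0.32, adjusted p = 0.043), a call lost without either control, the second sgEZH2-1 library or the second or the third sgEZH2-2 library (adjusted p 0.0558 to 0.209). GRB14, the other relative of GRB10, gave 0.56 with sgEZH2-1 (adjusted p = 0.17) and -0.13 with sgEZH2-2 (adjusted p = 0.846). PHLDA1 and PHLDA3, relatives of PHLDA2, gave pooled values of -0.02 (adjusted p = 0.946) and 0.11 (adjusted p = 0.81).

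The DNA methylation and imprint maintenance list held 19 genes, 16 of them tested. With the guides pooled 0 passed (0 rose and 0 fell), with sgEZH2-1 0 rose and 1 fell, and with sgEZH2-2 0 rose and 0 fell, with medians of -0.05, -0.05 and -0.07, against the all-gene shares and medians given above. The mean of both guides in the fit of 3 groups also gave 0 rises and 0 falls. The gene that fell was EHMT2, a histone H3 lysine 9 methyltransferase (-0.32, adjusted p = 0.0433). That call was lost without the first control, the first or second sgEZH2-1 library, or the second or the third sgEZH2-2 library (adjusted p 0.0597 to 0.28). DNMT1, the maintenance DNA methyltransferase, gave -0.09 with sgEZH2-1 (adjusted p = 0.339) and -0.04 with sgEZH2-2 (adjusted p = 0.741).

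**Figure D4:**
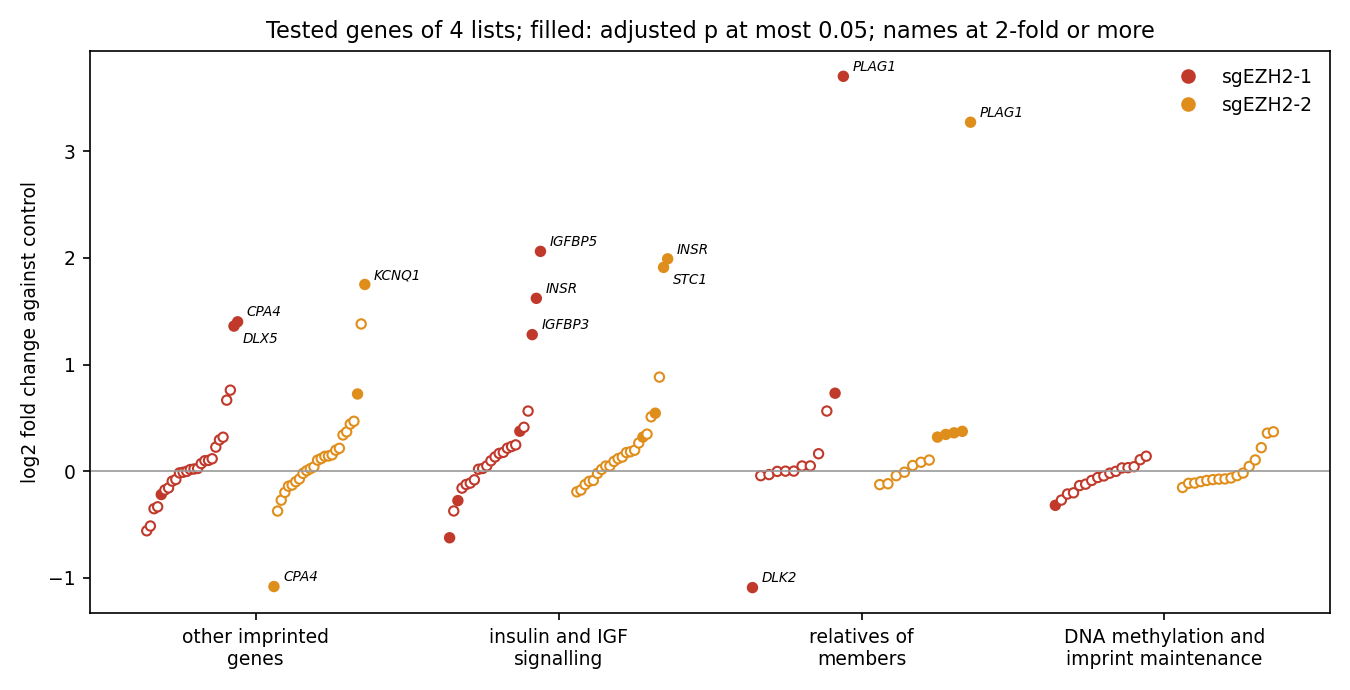
Log2 fold changes against Control of each tested gene of 4 lists, sorted within a list, for sgEZH2-1 (left run) and sgEZH2-2 (right run); filled points have an adjusted p of at most 0.05 and names are given to those changed at least 2-fold. INSR and PLAG1 are filled with both guides, and CPA4 lies at 1.40 with sgEZH2-1 and at -1.08 with sgEZH2-2.

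Genes near the 4 tested genes, with start sites within 500 kb, gave further values for each locus. Over all tested genes, 11.3% rose and 9.51% fell with sgEZH2-1, and 6.18% rose and 2.5% fell with sgEZH2-2. Around GRB10, 1 of 3 such genes was tested: FIGNL1, 251 kb away, with 0.21 for sgEZH2-1 (adjusted p = 0.0574) and 0.18 for sgEZH2-2 (adjusted p = 0.164). DDC and IKZF1 were not tested. Around MEST, 7 of 12 were tested, and CPA4 passed with each guide in the opposite direction. Around PEG10, 1 of 4 was tested, CASD1, with 0.39 for sgEZH2-1 and 0.12 for sgEZH2-2 (adjusted p = 0.259 and 0.805).

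Around PHLDA2, 7 of 9 genes were tested, of which 2 rose with sgEZH2-2, where 6.18% of all tested genes rose. These were KCNQ1 at 485 kb and OSBPL5 at 237 kb, described above. The OSBPL5 call was lost without either control or without the second or the third sgEZH2-2 library. NAP1L4, a histone chaperone gene 62.9 kb away, fell with sgEZH2-1 (-0.21, adjusted p = 0.0269), a call lost without the first control or the second or the third sgEZH2-1 library (adjusted p 0.0919 to 0.268). CDKN1C, an imprinted inhibitor of cyclin-dependent kinases 43.7 kb from PHLDA2, gave 0.76 with sgEZH2-1 (adjusted p = 0.118) and 0.47 with sgEZH2-2 (adjusted p = 0.445).

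**Figure D5:**
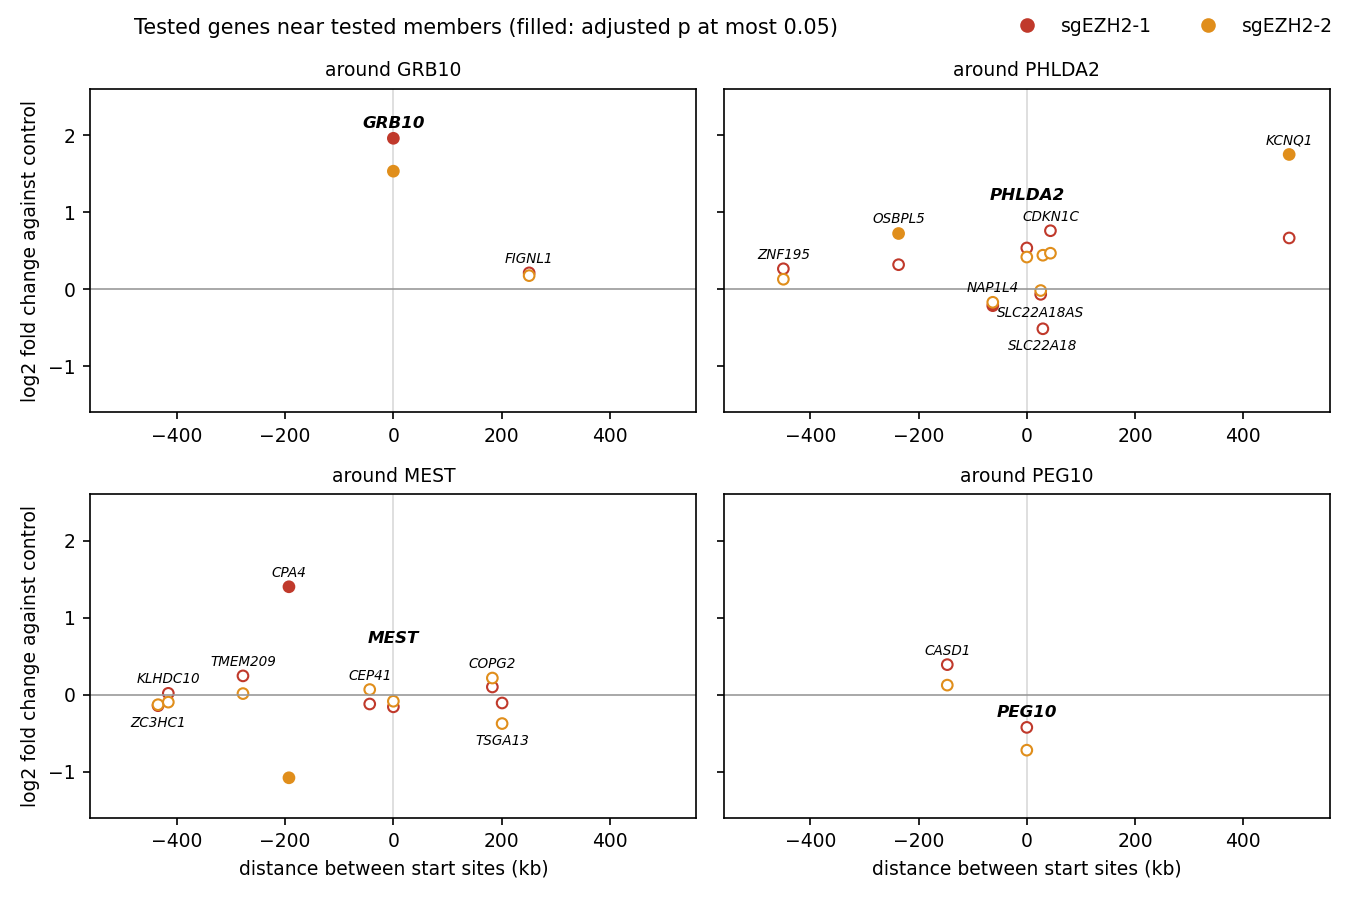
Log2 fold changes against Control of tested genes around GRB10, PHLDA2, MEST and PEG10, by distance between start sites in kb (positive in the direction of transcription of the central gene), for sgEZH2-1 and sgEZH2-2; filled points have an adjusted p of at most 0.05. GRB10 is filled with both guides and its tested neighbour FIGNL1 with neither, while CPA4 near MEST is filled on both sides of 0.

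The genes whose pattern over the 8 libraries was most like that of GRB10 were ranked by Pearson's r of log2(CPM + 0.5) among 12303 other genes with a mean of at least 1 CPM. They were PPP2R2C, a regulatory subunit of protein phosphatase 2A (r = 0.994), CCND2, which encodes cyclin D2 (r = 0.994), BDNF, a neurotrophin (r = 0.992), FGFR1, a fibroblast growth factor receptor (r = 0.992), and FN1, fibronectin (r = 0.991). These values are descriptive, with no p, since the 8 libraries fall into 3 groups and every gene's values come from the same libraries. An r above 0.95 was found for 170 genes (1.38%), and PLAG1 had 0.988 and INSR 0.878.

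All 5 were highest with sgEZH2-1 and lowest in Control, an order that follows from their choice by likeness to GRB10. PPP2R2C averaged 32.3 ± 1.2 CPM with sgEZH2-1, 24.1 ± 0.409 CPM with sgEZH2-2 (SD, n = 3 each) and 9.25 ± 1.47 CPM in Control (SD, n = 2), close to the CPM of GRB10 in each group. CCND2 averaged 30.8 ± 1.52 CPM with sgEZH2-1, 18.4 ± 0.867 CPM with sgEZH2-2 and 3.77 ± 1.09 CPM in Control, and BDNF 6.44 ± 0.19, 5.39 ± 0.292 and 2.76 ± 0.214 CPM in these groups. FGFR1 averaged 7.37 ± 0.861 CPM with sgEZH2-1, 5.03 ± 0.475 CPM with sgEZH2-2 and 0.441 ± 0.0214 CPM in Control, and FN1 9.41 ± 0.237, 5.32 ± 0.387 and 0.995 ± 0.3 CPM. FGFR1 had only 13 counts over both controls and passed the filter on low counts through the guide libraries.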

How the data were processed

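The deposited values are raw read counts per gene, without normalization by the authors, in 8 library columns (0 columns were left unused). FastQC, STAR, DESeq and build hg38 are named per the submitters' processing notes, and TruSeq Stranded mRNA library preparation per the labels' protocols. The sources used here do not state versions, counting tool, annotation or the use of strand. Columns name groups but no replicate numbers, so libraries are called the first, the second and the third in column order.

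CPM were computed on totals scaled by TMM, and low genes were removed with filterByExpr at a minimum count of 10. The test was the two-sided quasi-likelihood F test of edgeR 4.0.16 (R 4.3.3), with Benjamini-Hochberg adjustment over all 13124 genes tested and a threshold of 0.05. The pooled comparison used a fit of 2 levels, and the others were contrasts of a fit of 3 groups. Every adjusted p comes from edgeR unless DESeq2 (1.42.0) is named. The scripts were tested on simulated data. Symbols were matched to GENCODE release 29 (19873 by symbol, 421 unmatched), whose coordinates and exon lengths were used. Alternatives were DESeq2 size factors, DESeq2's Wald test, no filter, other fits and leaving out each library.

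The genes, lists and tests were chosen with earlier results of these data known. Named were the 10 genes, EZH2, up to 8 passing genes of each list and up to 4 near each tested gene, by smallest adjusted p, and the 5 most like GRB10. Other named genes (list members or neighbours that did not pass, and untested ones) were chosen after their values were seen.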

Additional observations from a re-analysis of the deposited data

Results flagged for a closer look

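The following named genes differed between the guides in edgeR (sgEZH2-1 minus sgEZH2-2, log2 scale, adjusted p at most 0.05 over all genes tested). Among the imprinted growth regulators this was GRB10 (0.43, adjusted p = 0.0112), higher in every sgEZH2-1 library than in every sgEZH2-2 library. The share of all tested genes with such a separation of the guides was not computed. EZH2 itself differed by -0.36 (adjusted p = 0.00844). Only genes named by the rule are given here: the full lists had 4 of 26 other imprinted genes called between the guides (1 higher and 3 lower with sgEZH2-1), 10 of 23 insulin and IGF genes (3 and 7), 5 of 12 relatives (1 and 4) and 2 of 16 DNA methylation genes (0 and 2), where 10.4% of all tested genes were higher and 11.5% lower.

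Of the other imprinted genes, CPA4 differed by 2.48 (adjusted p = 2.98e-06) and KCNQ1 by -1.09 (adjusted p = 0.00511). In insulin and IGF signalling, IGFBP3 differed by 1.10 (adjusted p = 5.11e-06), STC1 by -1.69 (adjusted p = 0.000256), INSR by -0.37 (adjusted p = 0.0248) and PIK3R2 by -0.53 (adjusted p = 0.0162). IGFBP7 differed by -0.29 (adjusted p = 0.00657) and IGF2BP1 by 0.33 (adjusted p = 0.0191).

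Among relatives, DLK2 differed by -1.19 (adjusted p = 0.00113), SGCB by 0.37 (adjusted p = 0.00938), MAGEF1 by -0.37 (adjusted p = 0.000895), MAGED2 by -0.34 (adjusted p = 0.0134) and GRB7 by -0.27 (adjusted p = 0.0282). GRB7 is also in the insulin and IGF list, so the counts above include it in both lists.

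Without single guide libraries the adjusted p passed 0.05 for GRB10 (0.0524), INSR (up to 0.106), PIK3R2 (0.0514 and 0.0711), IGF2BP1 (up to 0.0856), MAGED2 (up to 0.0635) and GRB7 (up to 0.106). The libraries concerned were the third of sgEZH2-2 for all 6 of these, and, for 1 or more of them, the second of sgEZH2-2 and each of sgEZH2-1.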

How the results depend on the processing

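No paired analysis was possible because the columns carry group names but no replicate numbers. GRB10 was the 1 gene of the 10 called in each comparison under every alternative but 2. Leaving out single libraries gave 1 to 2 called genes for sgEZH2-1 against Control (PHLDA2 was added without the first sgEZH2-1 library) and 0 to 1 for sgEZH2-1 against sgEZH2-2 (GRB10 was lost without the third sgEZH2-2 library). Signs turned when 1 library was left out for PEG10 between the guides (-0.0624 to 0.572; -0.0624 without the second sgEZH2-2 library), PHLDA2 between the guides (-0.123 to 0.354; -0.123 without the third sgEZH2-1 library) and MEST. MEST ran from -0.238 to 0.00279 pooled (highest without the first control), from -0.249 to 0.0467 with sgEZH2-2 (above 0 without the first control, at 0.0403, or the second sgEZH2-2 library) and from -0.205 to 0.10 between the guides (above 0 without the first sgEZH2-2 library). None of these was called, and the cause was not tested.

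Over all named genes, 549 of 630 values without a library kept direction and call, as did 306 of 316 under other alternatives, with 0 signs turned in these. The mean of both guides in the fit of 3 groups called EZH2 (-0.46, adjusted p = 0.00253) and further list genes, with counts given beside each list. DESeq2 ended the calls of IGFBP5 (adjusted p = 0.0624) and of SGCB with sgEZH2-2 (0.0567), and no filter that of DLX5 (0.0569). A fit of only the 2 groups compared ended those of IGFBP7 (0.0525), EHMT2 (0.0763) and NAP1L4 (0.0865) with sgEZH2-1 and of SGCB with sgEZH2-2 (0.0536).

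Over all tested genes, the pooled comparison called 572, against 1612 in the fit of 3 groups, 815 in DESeq2, and 163 and 145 without the first or second control. Calls were 2726 for sgEZH2-1, 1139 for sgEZH2-2 and 2874 between the guides, with lows of 1373, 521 and 1521 when 1 library was left out. With 2 controls and counts under 10 per library for IGF2 and SGCE, changes of the low genes could not be resolved.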
